A study of Homo sapiens with 4 samples.

Results

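The 10 genes described here encode the steps by which a cell makes, exports, senses and inactivates prostaglandin E2. They were found by gene symbol in a table of 48162 genes, each symbol matched 1 row, and all 10 were present. The list was drawn up by role in the pathway, but with an earlier analysis of the same libraries in view. Their differences between the groups are therefore given as a description, and the adjusted p-values printed beside them belong to a fit over all genes of the table.

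RNA was sequenced from the triple-negative breast cancer line MDA-MB-231 after 24 h with MGH-CP1 at 10 µM (2 libraries) or with vehicle (2 libraries). MGH-CP1 blocks the palmitoylation of TEAD proteins, per the series title. TEADs are transcription factors through which YAP and TAZ act on genes. Both groups were the same line in DMEM with fetal bovine serum and antibiotics, so the results concern 1 cancer line, with no stromal or immune cells added. The labels do not say whether the replicates were separate cultures. The p-values weigh the difference between groups against the spread of libraries within groups, and that spread may be technical.

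Prostaglandin E2 is a lipid signal. Phospholipase A2 frees arachidonic acid from membranes, a cyclooxygenase turns it into prostaglandin H2, and a prostaglandin E synthase isomerises that to prostaglandin E2. The product leaves the cell through transporters and acts on G protein-coupled receptors of the EP family, and dehydrogenases and reductases end its action. In breast and other epithelial tumors the pathway is best known for its inducible enzymes, PTGS2 (cyclooxygenase-2) and PTGES (microsomal prostaglandin E synthase-1).

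Levels are in FPKM, a library's fragments on a gene scaled to gene length and library total. Totals over the table ran between 16790645 and 18485701 reads, and 1 read per kilobase of gene equalled 0.0541 to 0.0596 FPKM. The TEAD targets CYR61 and CTGF served as a check of the compound. CYR61 averaged 59.5 ± 4.37 FPKM with MGH-CP1 and 232 ± 5.08 FPKM with vehicle, and CTGF averaged 12.1 ± 1.37 FPKM with MGH-CP1 and 33.3 ± 1.37 FPKM with vehicle (SD, n = 2 each). Of 7 tested markers of the line 3 rose and 1 fell, where 20.0% of all genes tested were called higher and 25.1% lower. KRT19 averaged 697 ± 25.2 FPKM with MGH-CP1 and 383 ± 17.2 FPKM with vehicle, CD44 336 ± 9.47 FPKM with MGH-CP1 and 274 ± 3.68 FPKM with vehicle, and VIM 196 ± 4.43 FPKM with MGH-CP1 and 159 ± 16.7 FPKM with vehicle. KRT18 fell to 60.1 ± 1.11 FPKM with MGH-CP1, against 74.5 ± 5.96 FPKM with vehicle. The estrogen receptor gene ESR1 had 1 read in the 4 libraries together, and the progesterone receptor gene PGR had 0, which allows up to 0.0130 FPKM. Markers listed as low for the line were not all so, with ERBB2 between 24.5 and 26.3 FPKM and EPCAM between 7.91 and 9.95 FPKM. Of 13 markers of blood, endothelial and stromal cells, 12 were in the table. Their summed level was 10.6 to 10.7 FPKM with MGH-CP1 and 8.76 to 9.38 FPKM with vehicle, and PTPRC had at most 8 reads in a library. Of the 4 of them tested, 1 rose and 0 fell by limma, against the same shares over all genes tested. The 1 that rose was CSF1R, at 2.81 and 3.19 FPKM with MGH-CP1, against 1.36 and 1.72 FPKM with vehicle. At an unadjusted p under 0.05 the counts were also 1 and 0. With voom 2 of these markers rose and 0 fell, and of all 11790 genes tested voom called 2609 higher and 3157 lower. Their part in the results below was not tested.

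The regions just before the transcription start of PTGS2 and PTGES are shown because these had the largest log2 fold changes among the 7 of the 10 genes that could be tested. That of PTGER4 is shown because this gene was lower with MGH-CP1, and that of PLA2G4A because it neighbours PTGS2. Each is the 250 bases before the start, read from RefSeq promoters on GRCh38.p14, 5′ to 3′ on the gene's own strand. Position -1 is the last base before the start. PTGS2 lies at chr1:186680424-186680673 (minus strand), PTGES at chr9:129753043-129753292 (minus strand), PTGER4 at chr5:40679665-40679914 (plus strand) and PLA2G4A at chr1:186828699-186828948 (plus strand). Capitals mark matches, on either strand, to a TATA box (TATAAA), a TEAD core (GGAATG), a C/EBP form (TTNNGCAA), a cAMP response element half-site (TGACG), an AP-1 site (TGANTCA), an NF-kB form (GGG, 5 bases of any kind, then CC), a GC box (GGGCGG) or a CCAAT box (CCAAT), and some matches overlap.
PTGS2: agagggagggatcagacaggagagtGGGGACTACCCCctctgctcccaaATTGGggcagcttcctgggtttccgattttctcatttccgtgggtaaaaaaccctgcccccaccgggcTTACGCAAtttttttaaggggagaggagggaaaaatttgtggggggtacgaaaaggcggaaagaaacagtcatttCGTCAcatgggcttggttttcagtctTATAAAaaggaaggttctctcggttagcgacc
PTGES: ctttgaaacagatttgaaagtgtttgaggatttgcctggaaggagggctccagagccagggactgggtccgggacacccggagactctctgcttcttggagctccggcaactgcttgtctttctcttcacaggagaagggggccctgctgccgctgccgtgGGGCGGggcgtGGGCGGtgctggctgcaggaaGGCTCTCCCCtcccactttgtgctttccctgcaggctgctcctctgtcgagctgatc
PTGER4: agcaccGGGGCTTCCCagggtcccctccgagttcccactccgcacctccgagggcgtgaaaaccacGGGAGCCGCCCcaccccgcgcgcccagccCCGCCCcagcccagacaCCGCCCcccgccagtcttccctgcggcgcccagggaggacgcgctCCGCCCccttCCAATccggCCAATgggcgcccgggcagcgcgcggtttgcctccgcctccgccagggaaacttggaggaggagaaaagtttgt
PLA2G4A: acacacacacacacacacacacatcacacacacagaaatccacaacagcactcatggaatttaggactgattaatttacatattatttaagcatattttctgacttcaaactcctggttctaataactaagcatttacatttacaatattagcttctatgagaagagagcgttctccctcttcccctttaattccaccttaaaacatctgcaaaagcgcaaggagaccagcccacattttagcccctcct

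In the PTGS2 sequence a TATA box stood at -32 to -27, a C/EBP form at -133 to -126 and a cAMP response element half-site at -58 to -54. It also held overlapping NF-kB forms between -225 and -214 and a CCAAT box at -201 to -197. Among all 35116 promoters of the table, 10.7% held a TATA box, 9.05% the C/EBP form, 21.2% the half-site and 32.0% a CCAAT box within the same window. The PTGES sequence held no TATA box and 2 GC boxes, at -89 to -84 and at -78 to -73, and GC boxes were present in 42.6% of all promoters. PTGER4 held 4 GC boxes and 2 CCAAT boxes in a window of 72.8% G and C, and PLA2G4A, at 38.8% G and C, held none of the 8 motifs. All 10 genes were matched by symbol, and RefSeq listed 14 promoters for them, since PTGS1, PTGES2 and HPGD have several. None of the 14 held the TEAD core or the AP-1 site, which 11.9% and 6.57% of all promoters held. The NF-kB form, by contrast, is loose enough to occur in 54.4% of all promoters and was present in 10 of the 14.

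The inducible enzymes at the centre of the pathway were higher with MGH-CP1 than with vehicle. Among the 10 genes, the constitutive synthases, the exporter and the EP4 receptor were lower. PTGS2 rose 6.21-fold and PTGES 3.36-fold in mean FPKM. PTGES2, PTGES3 and ABCC4 fell modestly, and PTGER4 fell to 0.767 FPKM with MGH-CP1, against 1.57 FPKM with vehicle. The values of MGH-CP1 and vehicle did not overlap for any of the 10 genes, 6 being higher and 4 lower with MGH-CP1. Such separation was common: it held for 50.5% of all genes with a read (24.6% higher and 25.8% lower) and for 74.1% of the genes tested (34.7% higher and 39.4% lower). Of the 11790 genes tested (mean of at least 1 FPKM), the fit called 20.0% higher and 25.1% lower (45.0% in all; adjusted p under 0.05). Of the 10 genes 7 were tested, 3 being called higher and 4 lower. PTGS1, PLA2G4A and HPGD lay under that limit. In bulk RNA, more cells transcribing a gene and more RNA per cell cannot be told apart.

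**Figure D1:**
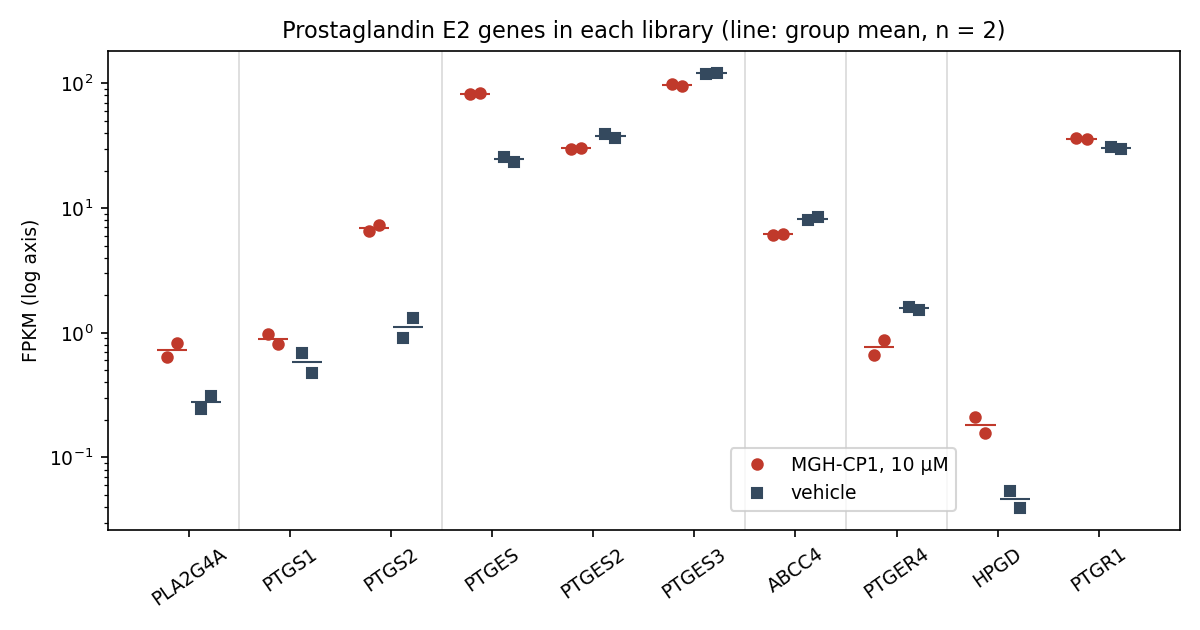
FPKM of the 10 genes (log axis) in each of the 4 libraries, with MGH-CP1 as circles left of vehicle as squares, and the group mean (n = 2) as a line. PTGS2 and PTGES show wide gaps between the groups, and PTGES3 has the highest level in every library.

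PLA2G4A encodes cytosolic phospholipase A2 alpha, the calcium-regulated enzyme that releases arachidonic acid. It stood at 0.644 and 0.820 FPKM with MGH-CP1 (32 and 40 reads), against 0.245 and 0.311 FPKM with vehicle (13 and 15 reads). Both MGH-CP1 libraries were above both vehicle libraries, at a level where every value rests on few reads. The ratio of read rates was 2.65, with a 95% interval of 1.69 to 4.26 that covers counting error only. In a fit to the reads recovered from the FPKM values (voom, genes with at least 10 reads), the log2 fold change was 1.37 ± 0.38 (SE; voom, adjusted p = 0.00954). That fit was chosen after the data were seen, and it called 16.7% of genes higher and 19.3% lower. On the log2(FPKM + 1) scale with no filter, where 6.36% were called higher and 8.25% lower, PLA2G4A did not pass (limma, adjusted p = 0.0578).

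PTGS2, the inducible cyclooxygenase, had 6.58 and 7.26 FPKM with MGH-CP1 (514 and 556 reads), against 0.911 and 1.32 FPKM with vehicle (76 and 100 reads). The lowest MGH-CP1 value was 4.99 times the highest vehicle value, whereas the 2 vehicle libraries differed from each other by 1.45-fold. The log2 fold change was 1.91 ± 0.13 (95% interval 1.62 to 2.21; limma, adjusted p = 5.64e-05). This scale, log2(FPKM + 1), understates the change of a gene near 1 FPKM, and the fit to reads gave 2.66 ± 0.17. On the main scale 6 of the 11790 genes tested had a larger log2 fold change than PTGS2. In vehicle PTGS2 ranked low, above 2.63% of the genes tested, and with MGH-CP1 it ranked above 40.9% of them.

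PTGS1, the cyclooxygenase that many tissues express constantly, was low throughout. It had 0.978 and 0.808 FPKM with MGH-CP1 (84 and 68 reads), against 0.687 and 0.480 FPKM with vehicle (63 and 40 reads). The groups lay close, the lowest MGH-CP1 value being 1.18 times the highest vehicle value. The ratio of read rates was 1.52 (counting interval 1.18 to 1.97), and PTGS1 did not pass in the fit to reads (voom, adjusted p = 0.0534) or with no filter (limma, adjusted p = 0.271). Because FPKM is per length, the levels of the cyclooxygenases can be set side by side. PTGS2 made up 87.1% and 90.0% of their summed FPKM with MGH-CP1, against 57.0% and 73.3% with vehicle. The vehicle libraries differed widely in this share: the mean difference between groups was 23.4 percentage points, and 15.2 without vehicle replicate 1. The summed level of the pair was 7.56 and 8.07 FPKM with MGH-CP1, against 1.597 and 1.799 FPKM with vehicle.

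PTGES, the inducible microsomal synthase that is often expressed together with PTGS2, had 81.7 and 83.5 FPKM with MGH-CP1 (2640 and 2647 reads). With vehicle it had 25.7 and 23.6 FPKM (886 and 739 reads). Its libraries agreed closely within each group, differing by 1.02-fold with MGH-CP1 and by 1.09-fold with vehicle. The log2 fold change was 1.71 ± 0.06 (95% interval 1.56 to 1.86; limma, adjusted p = 1.04e-05), and 14 of the genes tested had a larger one. PTGES ranked above 94.4% of the genes tested with MGH-CP1 and above 75.9% with vehicle.

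The other prostaglandin E synthases were lower. PTGES2, a membrane-associated synthase, had 30.0 and 30.3 FPKM with MGH-CP1, against 39.2 and 36.3 FPKM with vehicle. Its log2 fold change was -0.31 ± 0.06 (limma, adjusted p = 0.00571). PTGES3, the cytosolic synthase, which is also the HSP90 co-chaperone p23, had 98.7 and 94.9 FPKM with MGH-CP1, against 119.5 and 122 FPKM with vehicle. Its log2 fold change was -0.32 ± 0.06 (limma, adjusted p = 0.00324). For both genes the groups were apart by about the same margin, the mean with vehicle being 1.25 times the mean with MGH-CP1.

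The make-up of the synthase transcripts differed accordingly. PTGES held 38.8% and 40.0% of the summed FPKM of the 3 synthases with MGH-CP1, against 13.9% and 12.9% with vehicle. PTGES3 held 46.9% and 45.5% with MGH-CP1, against 64.8% and 67.1% with vehicle, and was the most abundant in each library. PTGES2 held 14.3% and 14.5% with MGH-CP1, against 21.2% and 19.9% with vehicle. PTGES thus stood below PTGES2 in both vehicle libraries and above it in both MGH-CP1 libraries. The sum over the 3 genes was 210.4 and 209 FPKM with MGH-CP1, against 184 and 182 FPKM with vehicle.

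**Figure D2:**
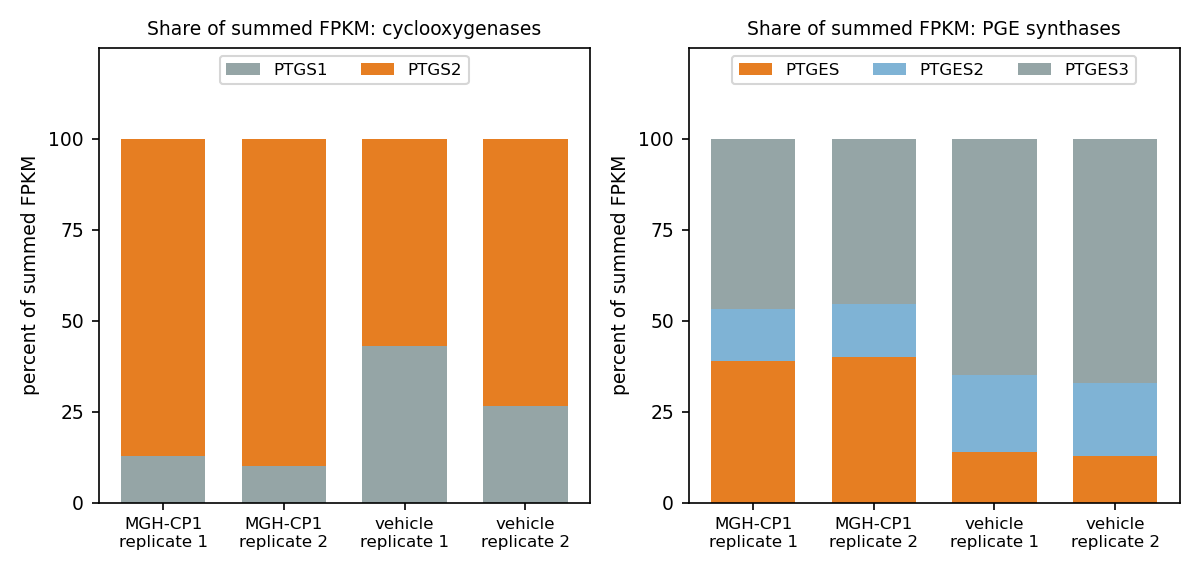
Share of the summed FPKM held by each cyclooxygenase gene (left) and each prostaglandin E synthase gene (right) in each library, in percent, with the MGH-CP1 libraries left of the vehicle libraries. PTGES holds 38.8% and 40.0% with MGH-CP1, against 13.9% and 12.9% with vehicle.

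ABCC4 (MRP4), an ATP-driven exporter that carries prostaglandin E2 out of cells, had 6.11 and 6.22 FPKM with MGH-CP1 (617 and 616 reads). With vehicle it had 7.98 and 8.51 FPKM (861 and 834 reads). The mean with vehicle was 1.34 times that with MGH-CP1, and the log2 fold change was -0.37 ± 0.08 (limma, adjusted p = 0.00802). The call was lost without MGH-CP1 replicate 1 (limma, adjusted p = 0.0536, its highest in any alternative).

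PTGER4 encodes EP4, a receptor that raises cyclic AMP through the G protein Gs. It had 0.661 and 0.873 FPKM with MGH-CP1 (44 and 57 reads), against 1.62 and 1.53 FPKM with vehicle (115 and 99 reads). Both MGH-CP1 values were well below both vehicle values, and the ratio of read rates was 0.486 (counting interval 0.380 to 0.619). The log2 fold change was -0.55 ± 0.13 (limma, adjusted p = 0.0140), and -1.05 ± 0.21 in the fit to reads. PTGER4 reached the limit for testing only through its vehicle values. It no longer passed without MGH-CP1 replicate 1 (limma, adjusted p = 0.0852) or when all genes with a read entered (limma, adjusted p = 0.0622).

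The inactivating enzymes differed greatly in level. HPGD, the 15-hydroxyprostaglandin dehydrogenase that starts the breakdown of prostaglandin E2, was barely detected. It had 0.210 and 0.156 FPKM with MGH-CP1 (11 and 8 reads), against 0.0536 and 0.0394 FPKM with vehicle (3 and 2 reads). All 4 libraries rest on so few reads that the ratio of read rates, 3.91, has a counting interval of 1.41 to 13.4, and HPGD did not pass in the fit to reads (voom, adjusted p = 0.0902). PTGR1, which reduces the oxidised products of HPGD and also inactivates leukotriene B4, was abundant. It had 36.2 and 35.7 FPKM with MGH-CP1, against 30.8 and 30.0 FPKM with vehicle. The groups were apart by a small margin, the log2 difference being 0.23 ± 0.06 (limma, adjusted p = 0.0127). The gene did not pass without MGH-CP1 replicate 1 (limma, adjusted p = 0.106) and without MGH-CP1 replicate 2 (limma, adjusted p = 0.0841).

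**Figure D3:**
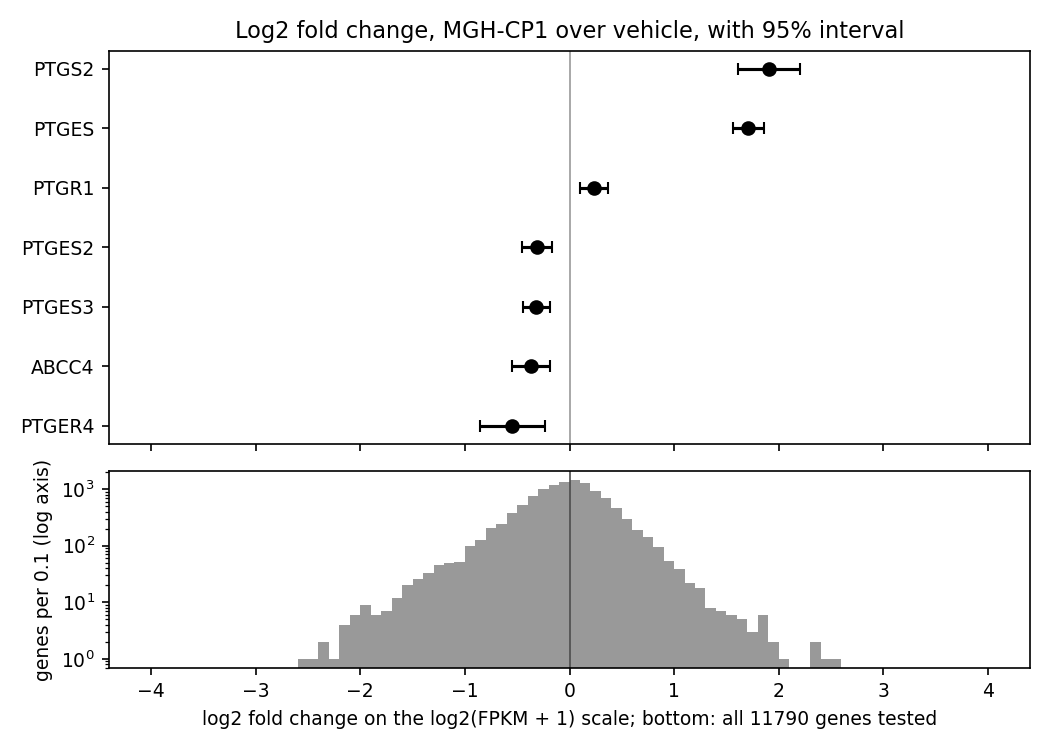
Top, log2 fold change of MGH-CP1 over vehicle with its 95% interval for the 7 genes tested. Bottom, the distribution of the same value over all 11790 genes tested (log axis for the number of genes), in whose upper tail PTGS2 (1.91) and PTGES (1.71) lie.

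By position, 4 of the 10 genes (PTGS1, PTGES, PTGES2 and PTGR1) are on chromosome 9. In the hg19 coordinates of the table, PTGS2 (ENSG00000073756, 186640923 to 186649559, minus strand) and PLA2G4A (ENSG00000116711, 186798085 to 186958113, plus strand) are neighbours on chromosome 1. They are separated by 148525 bases with 0 listed genes between them, and their starts face each other. PTGES (ENSG00000148344) spans 132500610 to 132515326 on the minus strand of chromosome 9, and PTGER4 (ENSG00000171522) spans 40679600 to 40693837 on the plus strand of chromosome 5. The use of strand in counting is not given in the sources used here, so reads of overlapping genes could be mixed. The genes that overlap any of the 10 had at most 0.574 FPKM in any library (an antisense transcript within PTGR1). PTGES3 has processed copies in the genome, of which PTGES3P1 is taken up in the closing observations.

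The genes around the pathway were taken from 10 further lists chosen by role, 219 symbols in all, of which 145 were tested. Of these 56 rose and 26 fell; their median log2 difference was 0.15, against -0.02 over all genes tested. Over all genes tested 20.0% were called higher and 25.1% lower, 45.0% in all, and the count of each list below stands against these shares. Like the 10 genes, the lists were chosen with earlier results known, so their counts are a description.

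Of 18 tested genes of arachidonate release and re-esterification 9 rose and 0 fell by limma, with a median of 0.26. The fall count was also 0 at an unadjusted p under 0.05 and in the fit to reads with voom. Among the 9 are the re-esterification genes MBOAT7 and LPCAT3 and the annexin gene ANXA1, so the count gives no direction for release. ACSL1, an acyl-CoA synthetase for long-chain fatty acids, had 20.7 and 21.7 FPKM with MGH-CP1, against 11.2 and 10.8 FPKM with vehicle. ACSL3, of the same family, averaged 24.5 ± 1.06 FPKM with MGH-CP1 and 16.4 ± 0.499 FPKM with vehicle (SD, n = 2 each). PNPLA2, the triglyceride lipase ATGL, averaged 42.2 ± 0.445 FPKM with MGH-CP1 and 28.1 ± 2.13 FPKM with vehicle. MBOAT7, which returns arachidonic acid to phosphatidylinositol, averaged 189 ± 1.55 FPKM with MGH-CP1 and 147 ± 1.12 FPKM with vehicle. The secreted phospholipase gene PLA2G2A had 0 reads in every library, which allows up to 0.137 FPKM.

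Other enzymes of the terminal prostanoid steps, with carbonyl reductase and glutathione transferase genes among them, gave 4 higher and 1 lower of 9 tested. The median was 0.28. AKR1C3, a prostaglandin F synthase, led them with 68.9 and 67.7 FPKM with MGH-CP1, against 25.9 and 28.0 FPKM with vehicle. Its log2 fold change was 1.31 ± 0.06 (limma, adjusted p = 2.01e-05), though reads may be split with close AKR1C paralogs. AKR1B1, which has the same activity, averaged 438 ± 2.13 FPKM with MGH-CP1 and 329 ± 6.46 FPKM with vehicle. FAM213B, another prostaglandin F synthase, fell (14.3 ± 0.243 FPKM with MGH-CP1 and 19.4 ± 0.0587 FPKM with vehicle). GSTM2, a glutathione transferase gene that overlaps its paralog GSTM1, had 1.61 and 1.36 FPKM with MGH-CP1, against 0.839 and 0.937 FPKM with vehicle, and reached the limit for testing only through its MGH-CP1 values. Its call was lost whichever library was left out, with no filter and with the replicate block (limma, highest adjusted p = 0.226). GSTM3, also called higher, averaged 18.8 ± 0.310 FPKM with MGH-CP1 and 15.3 ± 1.46 FPKM with vehicle. It did not pass with no filter (limma, adjusted p = 0.0946). Whether these 2 transferases act on prostaglandins in these cells was not tested. The prostaglandin D synthase genes PTGDS and HPGDS had 0 reads in every library, which allows up to 0.181 and 0.109 FPKM.

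Of 8 other prostanoid receptor genes only TBXA2R, the thromboxane receptor, reached the limit for testing. It had higher levels than PTGER4 in each library, at 2.99 and 2.53 FPKM with MGH-CP1, against 2.36 and 2.37 FPKM with vehicle, and did not pass (limma, adjusted p = 0.291). PTGER2, which encodes the other Gs-coupled receptor EP2, had 0.267 and 0.371 FPKM with MGH-CP1, against 0.386 and 0.350 FPKM with vehicle, and these groups overlap. PTGER1 had 4 and 0 reads with MGH-CP1 and 8 and 2 with vehicle, and PTGER3 had 1 read in each group. PTGIR and PTGDR had 0 reads in every library, which allows up to 0.0848 and 0.0607 FPKM. PTGER4 thus had the highest level among the EP receptor genes in each library.

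Among 7 tested transport and inactivation genes other than ABCC4, HPGD and PTGR1, 2 rose and 1 fell, with a median of 0.09. ABCC3, an organic anion exporter of the same family as ABCC4, averaged 29.1 ± 1.16 FPKM with MGH-CP1 and 18.7 ± 1.00 FPKM with vehicle. SLCO4A1, an organic anion uptake transporter, averaged 21.6 ± 0.903 FPKM with MGH-CP1 and 15.9 ± 0.719 FPKM with vehicle, and overlaps an opposite-strand transcript. ABCC1, which exports leukotriene C4, fell (17.9 ± 0.536 FPKM with MGH-CP1 and 22.5 ± 1.16 FPKM with vehicle), a call lost without MGH-CP1 replicate 1 (limma, adjusted p = 0.0668, its highest in any alternative). SLCO2A1, the prostaglandin uptake transporter, was under the limit for testing, with 36 reads over the MGH-CP1 libraries and 20 over the vehicle libraries.

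Downstream of EP4, 7 of 27 tested genes of the cyclic AMP machinery rose and 3 fell, with a median of 0.03; 17 did not pass. ADCY3, an adenylyl cyclase, had 5.56 and 5.80 FPKM with MGH-CP1, against 12.8 and 12.6 FPKM with vehicle (log2 fold change -1.04 ± 0.07; limma, adjusted p = 7.06e-05). It overlaps CENPO on the opposite strand, so this value is uncertain. The cyclic AMP phosphodiesterase genes PDE7B and PDE4D rose, PDE7B averaging 8.40 ± 0.430 FPKM with MGH-CP1 and 5.19 ± 0.539 FPKM with vehicle. PDE4D averaged 7.54 ± 0.651 FPKM with MGH-CP1 and 5.06 ± 0.539 FPKM with vehicle, and it did not pass once low genes were kept (limma, adjusted p = 0.0532, its highest in any alternative). ARRB1, which encodes beta-arrestin-1 and helps to desensitise such receptors, averaged 31.4 ± 0.658 FPKM with MGH-CP1 and 22.9 ± 1.45 FPKM with vehicle.

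Genes known to respond to cyclic AMP and CREB gave 10 higher and 1 lower of 18 tested, with a median of 0.29. PER1, a clock gene, averaged 4.84 ± 0.398 FPKM with MGH-CP1 and 2.39 ± 0.195 FPKM with vehicle. RGS2, a regulator of G protein signalling, had 1.89 and 2.28 FPKM with MGH-CP1, against 0.523 and 0.975 FPKM with vehicle. RGS2 reached the limit for testing only through its MGH-CP1 values, and it did not pass once low genes were kept (limma, adjusted p = 0.0589, its highest in any alternative). CRY1, another clock gene, fell to 3.79 ± 0.0121 FPKM with MGH-CP1, against 7.48 ± 0.278 FPKM with vehicle. CEBPB, also on this list, is given with the next.

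Of 27 tested genes of regulators of PTGS2 transcription, 10 rose and 6 fell, with a median of 0.08. CEBPB and CEBPD, factors of the C/EBP family, both rose. Whether they bind the C/EBP form in the PTGS2 sequence above was not tested. CEBPB had 78.9 and 79.0 FPKM with MGH-CP1, against 53.0 and 43.2 FPKM with vehicle. CEBPD had 26.3 and 27.0 FPKM with MGH-CP1, against 16.5 and 14.8 FPKM with vehicle. HIF1A, the hypoxia-regulated factor, averaged 166 ± 4.06 FPKM with MGH-CP1 and 92.5 ± 5.63 FPKM with vehicle. FOSL1, an AP-1 subunit, fell to 82.2 and 77.1 FPKM with MGH-CP1, against 223 and 196 FPKM with vehicle (log2 fold change -1.38 ± 0.08; limma, adjusted p = 3.41e-05). ETS1 fell as well, to 34.5 ± 1.04 FPKM with MGH-CP1, against 62.0 ± 1.20 FPKM with vehicle. Of the NF-kB subunit genes, NFKB1 fell to 13.9 ± 0.789 FPKM with MGH-CP1, against 20.4 ± 1.37 FPKM with vehicle. RELA rose to 51.2 ± 0.796 FPKM with MGH-CP1, against 42.9 ± 1.77 FPKM with vehicle, and NFKB2, RELB and REL did not pass. Whether they bind the NF-kB forms in the PTGS2 sequence was not tested.

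PTGS2 mRNA is short-lived, and proteins that bind its AU-rich elements speed or slow its decay. Of 18 tested genes of such proteins 3 rose and 9 fell, with a median of -0.18. ZFP36 (tristetraprolin), which promotes decay, had 11.3 and 12.7 FPKM with MGH-CP1, against 6.09 and 5.60 FPKM with vehicle (log2 fold change 0.93 ± 0.09; limma, adjusted p = 0.000222). KHSRP, which also promotes decay, fell to 129 ± 0.948 FPKM with MGH-CP1, against 189.9 ± 7.56 FPKM with vehicle. ELAVL1 (HuR), which stabilises AU-rich mRNAs, fell to 16.1 ± 0.628 FPKM with MGH-CP1, against 23.8 ± 1.75 FPKM with vehicle. HNRNPD (AUF1) fell to 49.5 ± 2.33 FPKM with MGH-CP1, against 83.4 ± 3.23 FPKM with vehicle. The members that moved thus include decay factors in both directions.

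Among 19 tested genes of inducers of PTGS2 and their receptors, 9 rose and 4 fell, with a median of 0.22. IL1B, a cytokine that induces both PTGS2 and PTGES in many cells, had 16.7 and 15.9 FPKM with MGH-CP1, against 6.30 and 7.96 FPKM with vehicle (log2 fold change 1.10 ± 0.10; limma, adjusted p = 0.000225). TNFRSF1B, a tumor necrosis factor receptor, averaged 20.8 ± 0.799 FPKM with MGH-CP1 and 10.3 ± 0.0333 FPKM with vehicle. S1PR1, a sphingosine 1-phosphate receptor, had 2.31 and 2.23 FPKM with MGH-CP1, against 0.707 and 0.798 FPKM with vehicle, and reached the limit for testing only through its MGH-CP1 values. HBEGF, a ligand of the EGF receptor, fell to 27.5 and 22.9 FPKM with MGH-CP1, against 48.3 and 46.0 FPKM with vehicle.

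**Figure D4:**
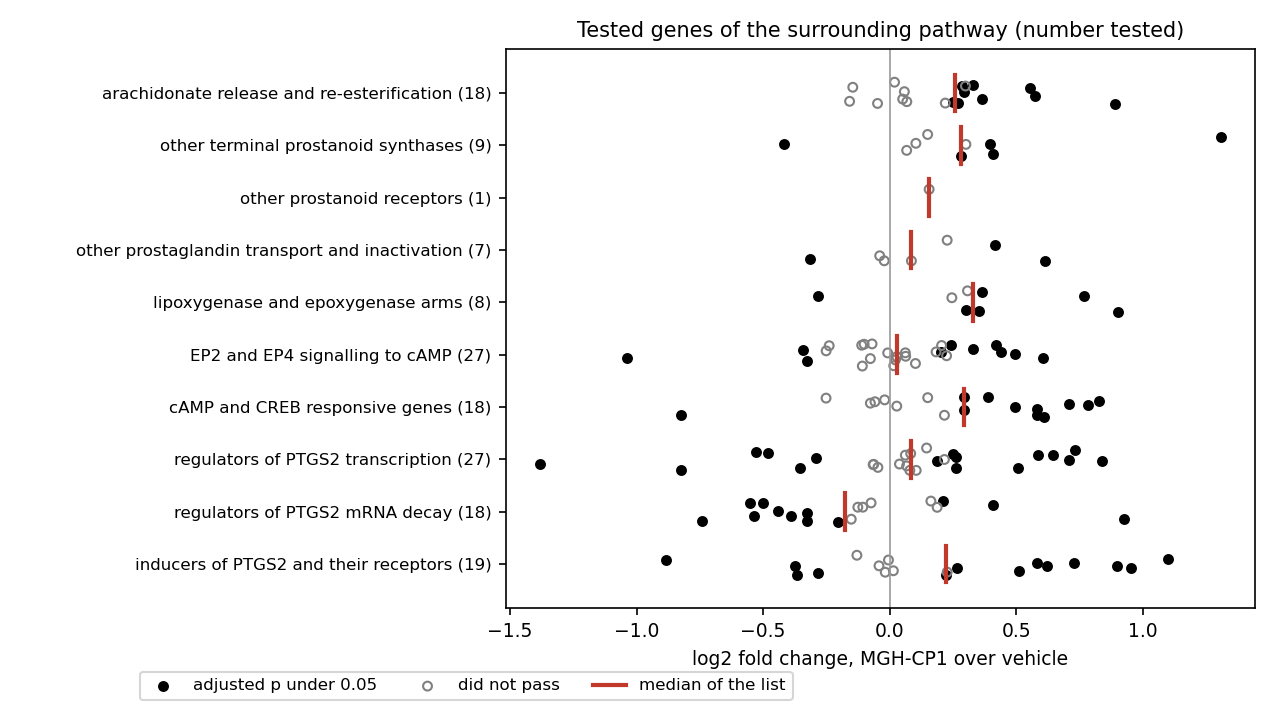
Log2 fold change of MGH-CP1 over vehicle for each tested gene of the 10 lists around the pathway, with the number tested in brackets. Filled points passed at an adjusted p under 0.05, open points did not, and the red line is the median of the list, which runs between -0.18 and 0.33.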

How the data were processed

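The authors deposited FPKM values for 48162 genes in 4 libraries, with hg19 coordinates. Per the submitters' processing notes, CASAVA 1.8 and STAR were used with hg19. How reads were counted, with or without strand, was not given in the sources used here, nor was the annotation. Multiplied by gene length, 100% of values above 0 were whole multiples (within 0.01) of a step inversely proportional to their sum, and these multiples were taken as reads. Counting intervals (exact, 95%) and limits for 0 reads (3 reads in a library) cover counting error only.

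The groups were compared in limma 3.58.1 (R 4.3.3) on log2(FPKM + 1), for genes averaging 1 FPKM or more, with a mean-variance trend, two-sided, with Benjamini-Hochberg adjustment over all genes tested. With 2 against 2 libraries an exact permutation test cannot go below p = 0.333, so none was run. Members and lists were chosen with earlier results of these data known. The rule for named genes took all 10 members, CYR61 and CTGF, genes overlapping a member on either strand and pseudogenes of a member. From each other list it took the 4 called genes with the largest absolute log2 fold change. GSTM3, LPCAT3, ANXA1 and the NF-kB subunit genes are named in addition, to complete a count or a motif. Tables and plots used Python 3.11.15. The alternatives are given in the closing section.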

Additional observations from a re-analysis of the deposited data

How the results depend on the processing

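Of 167 tested genes of the lists, 0 reversed direction under the 12 alternatives while called in the main fit or the alternative. Changes of sign in genes called in neither were not counted. PTGS2 (log2 fold change 1.77 to 2.66), PTGES (1.65 to 1.77), PTGES2 and PTGES3 passed under each alternative in which they were tested; PTGS2 and PTGER4 are not tested at a mean of at least 5 FPKM. The fit to reads over genes with at least 10 reads was chosen after seeing the data. The number of genes called higher, 2355, was 1568 with no filter, and 1460 to 2556 leaving out a library each, lowest without MGH-CP1 replicate 2 and 1524 without MGH-CP1 replicate 1. The number called lower, 2956, was 2052 to 3087 leaving out a library. Of the 10 genes, 3 were called higher (2 to 3 leaving out a library) and 4 lower (2 to 4; 2 without MGH-CP1 replicate 1). Of the pathway lists 56 were called higher (35 with no filter, 37 to 58 leaving out a library) and 26 lower (18 to 28). The share of PTGS2 differed by 15.2 to 31.5 percentage points and that of PTGES by 25.4 to 26.6. With the replicate number as a block, 2453 genes were called higher and 3036 lower, with 3 and 4 of the 10 genes. Same-numbered libraries deviated together with a correlation of 0.05 across genes. That single value cannot decide whether the numbers pair the libraries. Depth limits PTGS1, PLA2G4A, HPGD and the receptors under the limit for testing.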

Other observations

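The lipoxygenase and epoxygenase arms of arachidonic acid metabolism were mostly low in these cells: 22 of 30 genes lay under the limit for testing and 6 had no read in any library. Of the 8 tested, 5 rose and 1 fell; the median log2 difference was 0.33. EPHX1, the microsomal epoxide hydrolase, had 77.1 and 74.4 FPKM with MGH-CP1, against 42.3 and 37.9 FPKM with vehicle (log2 fold change 0.90 ± 0.07; limma, adjusted p = 9.32e-05), and overlaps TMEM63A on the opposite strand. GGT1, a gamma-glutamyltransferase that trims leukotriene C4, averaged 14.2 ± 0.650 FPKM with MGH-CP1 and 7.95 ± 0.359 FPKM with vehicle, and it overlaps SNRPD3 and has close paralogs. The microsomal glutathione transferase genes MGST3 (14.0 ± 1.49 FPKM with MGH-CP1 and 10.6 ± 0.469 FPKM with vehicle) and MGST2 (5.77 ± 0.384 FPKM with MGH-CP1 and 4.29 ± 0.314 FPKM with vehicle) were also called higher. MGST2 overlaps MAML3 and a pseudogene on the opposite strand. Both calls were lost with no filter and without MGH-CP1 replicate 1, and that of MGST2 also without vehicle replicate 1 (limma, highest adjusted p = 0.102 for MGST3 and 0.134 for MGST2).

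Some genes were picked out after their values were seen. ALOX15B, a 15-lipoxygenase, had 77 reads over the MGH-CP1 libraries and 18 over the vehicle libraries. PLA2G6, a calcium-independent phospholipase A2, had 149 reads with MGH-CP1 and 63 with vehicle, and BDKRB2, the bradykinin B2 receptor, had 137 and 141 reads in the MGH-CP1 libraries, against 60 and 48 in the vehicle libraries. All 3 lie under the limit for testing.

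PTGES3P1, a processed copy of PTGES3 on hg19 chromosome 1 (89569968 to 89570450), moved against its parent gene. It had 5.15 and 5.98 FPKM with MGH-CP1 (43 and 49 reads), against 2.46 and 2.22 FPKM with vehicle (22 and 18 reads), while PTGES3 was lower with MGH-CP1. Its log2 fold change was 0.97 ± 0.11 (limma, adjusted p = 0.000437), and how reads were divided between gene and copy was not tested.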
